A study of Homo sapiens with 45 samples.

Results

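Loss of the transcription factor FOXA1 was compared directly with loss of the estrogen receptor in MM134 cells (MDA-MB-134-VI), a breast cancer line derived from invasive lobular carcinoma. The comparison took 6 of the 45 libraries of the study by their labels, the 3 MM134 libraries of the siFOXA1_E2 group and the 3 of the siER_E2 group, and read every gene as siFOXA1_E2 minus siER_E2. Cells of both groups had been kept for 3 days in charcoal-stripped serum, which removes steroid hormones, and were then transfected with a small interfering RNA (siRNA), which lowers the transcript it matches. The siRNA was against FOXA1 in one group and against the receptor gene ESR1 in the other. Both groups received 100 pM of the hormone estradiol (E2) 24 h after transfection and were collected 24 h later. Hormone was thus the same in both groups, and the siRNA differed. For reference, levels are also given in siNT_E2 cells, which received a non-targeting siRNA and the same E2, and in siNT cells, which received that siRNA and vehicle (ethanol). The study held the same 5 groups, including an siRNA against the break-signalling gene MDC1, in 2 other lines, MM330 (MDA-MB-330) and HCC1428. The labels name each siRNA by its target only, and effects of an siRNA on other transcripts cannot be told apart from loss of its target. They do not say whether the 3 libraries of a group were separate cultures, so p-values measure only the spread between these libraries.

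Estrogen receptor alpha, the product of ESR1, is a nuclear hormone receptor that binds estrogen response elements and recruits coactivators when it carries E2. FOXA1 is a forkhead pioneer factor, a protein that binds compacted chromatin and opens sites at which the receptor and other luminal factors then bind. Both factors are hallmarks of luminal breast epithelium, and many estrogen-responsive enhancers of such cells carry forkhead sites.

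Library totals were 25.3 to 29.7 M counts in siER_E2 and 31.1 to 33.4 M in siFOXA1_E2. Levels are given as CPM, a gene's counts relative to the library size, scaled by the trimmed mean of M values within MM134, and compare libraries for 1 gene, not genes with each other. Processed pseudogenes (gene copies that arose from spliced RNA) took 0.494% of the counts of siER_E2 replicate 3 and 0.493% of siFOXA1_E2 replicate 1 but 0.148% to 0.153% of the other 4 libraries. With 1 such library in each group, the count over all genes and several list counts are also given without both. Breast epithelial markers (10 of 10 with counts) summed to 8740 to 9060 CPM in siER_E2 and 16800 to 17500 in siFOXA1_E2, with the cytokeratin gene KRT8 as the largest in the latter. All 15 immune cell markers were under 1 CPM in both groups, and endothelial markers summed to 0.612 to 1.28 and 1.63 to 2.54 CPM. Of 12 fibroblast markers, 10 were under 1 CPM in each group, and COL1A1 and FBLN1 made up most of a sum of 208 to 237 CPM. In such bulk RNA, fewer cells of a kind and less RNA per cell cannot be told apart.

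Both siRNAs lowered ESR1 transcript, the receptor siRNA more so. ESR1 (ENSG00000091831.23, GRCh38 chromosome 6, 151656691 to 152129619) stood at 68.9, 66.4 and 62.3 CPM in the siER_E2 libraries and at 119, 113 and 120 CPM in the siFOXA1_E2 libraries. The groups did not overlap, and the level was 1.78-fold higher with FOXA1 knockdown (log2 0.83 ± 0.043 SE, adjusted p = 2.9e-13, edgeR's quasi-likelihood test with Benjamini-Hochberg adjustment over all genes, as for every adjusted p below). Both groups lay far under the siNT_E2 level of 573 ± 7.4 CPM (SD, n = 3) and the siNT level of 344 ± 21. The siRNA against MDC1 went with a low level too, at 129 ± 0.39 CPM in siMDC1_E2, so the fall was not particular to the compared siRNAs. FOXA1 (ENSG00000129514.5, chromosome 14, 37589984 to 37596059) read 578, 584 and 583 CPM with the receptor siRNA and 119, 120 and 120 CPM with its own. That is 4.85-fold lower in siFOXA1_E2 (log2 -2.28 ± 0.029, adjusted p = 4.1e-23), while the siER_E2 level was above the 471 ± 12 CPM of siNT_E2 (log2 0.31, adjusted p = 1.8e-09). The comparison thus set cells with little receptor transcript and full FOXA1 against cells with little of either, since ESR1 in siFOXA1_E2 was 4.88-fold under siNT_E2. MDC1, a scaffold protein at DNA breaks, read 130, 114 and 117 CPM in siER_E2 and 143, 148 and 147 CPM in siFOXA1_E2, without overlap (log2 0.28 ± 0.047, adjusted p = 3.1e-05). Both were under the 186 CPM of siNT_E2.

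**Figure D1:**
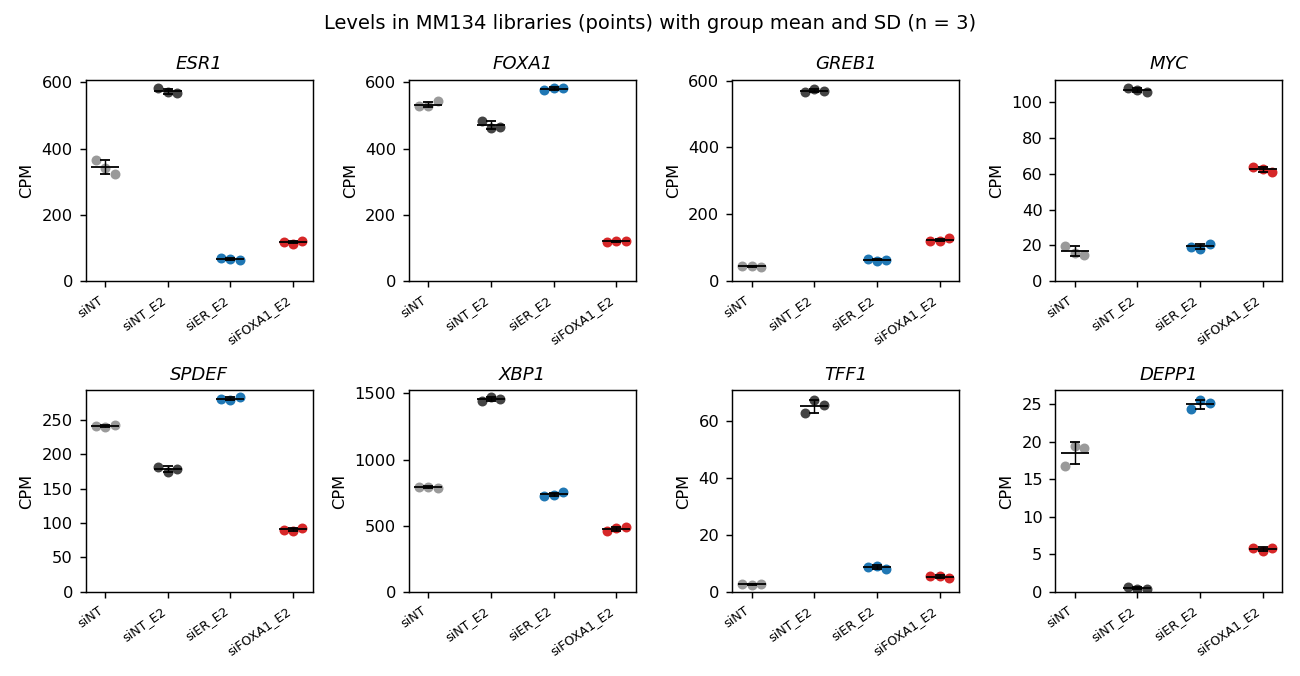
Levels (CPM, linear axes from 0) of 8 genes in the 3 libraries of siNT, siNT_E2, siER_E2 and siFOXA1_E2 of MM134, as points with the group mean (long bar) and SD (error bars). ESR1, GREB1 and MYC are higher with siFOXA1_E2 than with siER_E2, and FOXA1, SPDEF, XBP1, TFF1 and DEPP1 are lower.

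About as many genes were higher as lower. Of 17744 genes tested, 9100 (51.3%) passed an adjusted p below 0.05, 4585 (25.8%) higher and 4515 (25.4%) lower in siFOXA1_E2. Changes of 2-fold or more were found in 707 higher (3.98%) and 743 lower genes (4.19%). Counts of list members below are to be read beside these shares of all genes. The libraries of both groups did not overlap in 10236 genes (57.7%), and the median log2 fold change of all genes was -0.02. For 9117 genes (51.4%) the 95% interval of the fold change lay within 1.5-fold either way. In the same contrast (siFOXA1_E2 minus siER_E2 in MM134) without the pair of libraries with the higher pseudogene share, 8477 genes were called, and in that at the threshold of 2-fold or more 1493. For scale, 9648 genes (54.4%) were called between siNT_E2 and siNT, 10141 genes (57.2%) were called between siER_E2 and siNT_E2 and 9992 (56.3%) between siFOXA1_E2 and siNT_E2, all of which use the siNT_E2 libraries.

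**Figure D2:**
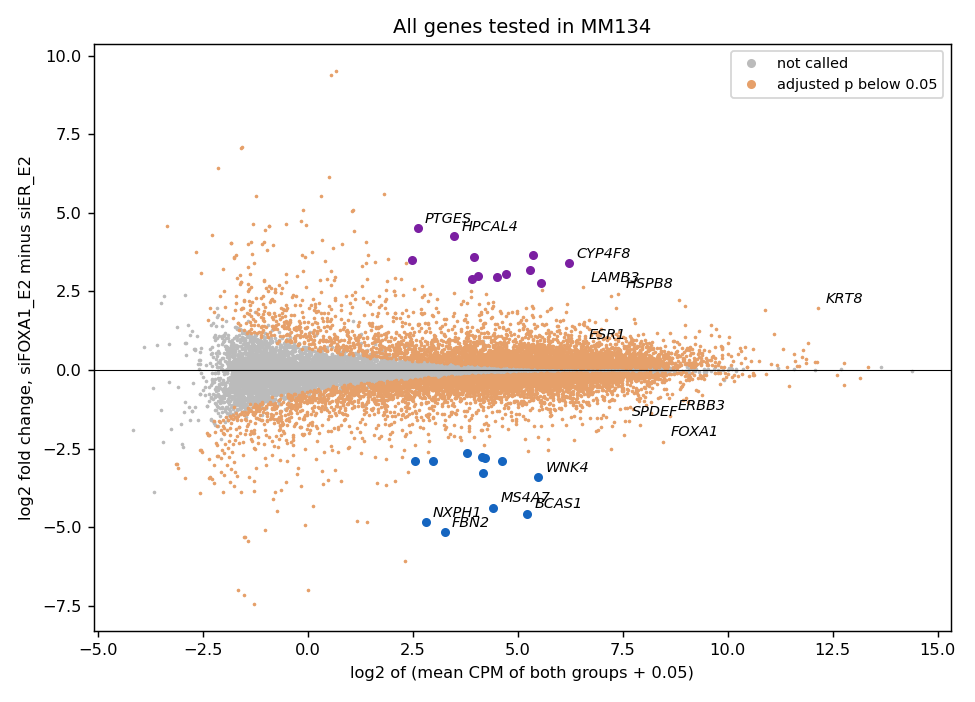
Log2 fold change (siFOXA1_E2 minus siER_E2) of each tested gene against the log2 of its mean CPM in both groups plus 0.05. Orange genes passed an adjusted p below 0.05; purple and blue mark the 12 highest and 12 lowest protein-coding genes that reach 10 CPM, and further genes described in the text carry their name.

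Most classical estrogen-induced genes stood higher after FOXA1 knockdown than after receptor knockdown, and a smaller number stood lower. Of 50 tested E2-induced targets, 32 were higher, 12 were lower and 6 were not called, with a median log2 of 0.60 against -0.02 for all genes. Without the pair of libraries with the higher pseudogene share, 31 were higher and 12 lower. Their medians against siNT_E2 were -1.40 in siER_E2 and -0.82 in siFOXA1_E2, both read against the same control libraries.

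GREB1 (chromosome 2, 11482341 to 11642788), a chromatin cofactor of the receptor, stood at 66.2, 61.6 and 64.3 CPM in siER_E2 and at 121, 120 and 128 CPM in siFOXA1_E2. These groups did not overlap (1.92-fold, log2 0.94 ± 0.038, adjusted p = 3.2e-15), and both were well under the siNT_E2 level of 570 CPM. MYC (chromosome 8, 127735434 to 127741434), a driver of growth and ribosome production, read 19.3, 18.2 and 20.8 CPM against 64.1, 62.8 and 61.3 CPM. The receptor-knockdown level of MYC was near that of siNT cells (16.6 CPM), and that of FOXA1 knockdown lay between it and the 107 CPM of siNT_E2 (log2 1.69 ± 0.064, adjusted p = 1.6e-15). PDZK1, a scaffold of membrane transporters, rose from 2.00, 2.80 and 2.97 to 5.54, 6.01 and 6.13 CPM (log2 1.19, adjusted p = 5.2e-08), where siNT_E2 stood at 66.1 CPM. In siMDC1_E2, GREB1, MYC and PDZK1 stood at 94.8, 70.2 and 3.87 CPM, also under siNT_E2.

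HSPB8, which encodes a small heat shock protein, had the smallest p of the E2-induced list. Its levels were 50.9, 53.2 and 53.2 CPM in siER_E2 and 272, 284 and 292 CPM in siFOXA1_E2 (5.39-fold, log2 2.43 ± 0.038, adjusted p = 5.7e-22). In siNT cells it stood at 54.3 CPM and in siNT_E2 at 217 CPM, so the FOXA1-knockdown libraries were above the E2-treated control (log2 0.38, adjusted p = 2.1e-09) and the receptor-knockdown libraries near the vehicle level. SLC9A3R1, a scaffold under the apical membrane, read 376, 372 and 380 CPM against 881, 908 and 899 CPM (log2 1.25, adjusted p = 5.7e-20), with 1030 CPM in siNT_E2. RAPGEFL1, which encodes a protein of the Rap exchange factor family, rose from 11.7, 12 and 14.3 to 44.3, 45.6 and 46.1 CPM (log2 1.84), where siNT_E2 stood at 152 CPM. Neither gene had overlapping groups. Other members of the list were also higher: the retinoic acid receptor gene RARA by 0.86, the fatty acid elongase gene ELOVL2 by 1.10, the corepressor gene NRIP1 by 0.68 and the secreted glycoprotein gene STC2 by 0.66 on the log2 scale. IGF1R, the receptor of insulin-like growth factor, was higher by only 0.17 (adjusted p = 0.0024).

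The members that went the other way included the trefoil peptides, which protect mucosal surfaces. TFF1 (chromosome 21, 42362282 to 42366594) stood at 8.78, 9.15 and 7.96 CPM with the receptor siRNA and at 5.64, 5.49 and 4.72 CPM with the FOXA1 siRNA (1.63-fold lower, log2 -0.71 ± 0.091, adjusted p = 7.6e-07). TFF3 read 26.9, 27.5 and 30.2 CPM against 12, 13.1 and 13.3 CPM (log2 -1.14, adjusted p = 1.8e-11). For both genes the groups were apart, and siNT_E2 was higher than either, at 65.1 and 86.6 CPM. AREG, a ligand of the epidermal growth factor receptor, fell from 17.2, 17 and 15.5 to 7.31, 5.82 and 7.27 CPM (log2 -1.28). Both groups were below the 21.3 CPM (mean) of siNT cells without hormone and the 137 CPM of siNT_E2. RET, a receptor tyrosine kinase, read 116, 112 and 118 CPM against 66.3, 65.1 and 66.6 CPM (log2 -0.81). IGFBP4, which binds insulin-like growth factors, was lower by 0.58 on the log2 scale, the chemokine gene CXCL12 by 0.40 and CCND1, the cyclin that starts the cell cycle, by 0.46. CCND1 read 8200, 8020 and 8190 CPM in siER_E2 and 5900, 5850 and 5970 CPM in siFOXA1_E2, against 14400 CPM in siNT_E2. The apoptosis inhibitor BCL2 stood at 38.4, 36.7 and 40.3 CPM against 40.9, 42.9 and 39 CPM, groups that overlapped (log2 0.09, adjusted p = 0.14). AGR3, a protein disulfide isomerase relative, was under 1 CPM in every library of both groups (log2 -0.97, adjusted p = 0.051). The progesterone receptor gene PGR had too few counts in MM134 to be tested.

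Estrogen-repressed genes showed the opposite balance. Of 21 tested, 7 were higher, 11 lower and 3 not called, with a median log2 of -0.27 (7 and 10 without the libraries with the higher pseudogene share, median -0.18). DEPP1 (chromosome 10, 44970981 to 44978810), a FOXO-linked regulator of autophagy, stood at 24.3, 25.5 and 25.1 CPM in siER_E2 and at 5.86, 5.45 and 5.86 CPM in siFOXA1_E2. The groups were far apart (4.36-fold lower, log2 -2.12 ± 0.10, adjusted p = 8e-14), and both were above the 0.468 CPM of siNT_E2. CCNG2, an atypical cyclin of arrested cells, read 126, 132 and 124 CPM against 50.9, 52.6 and 52.5 CPM (log2 -1.29), and BTG2, an antiproliferative gene, 70.6, 72.4 and 77.7 CPM against 29.1, 33.4 and 31 CPM (log2 -1.24). The proapoptotic genes BIK and BMF were lower by 1.67 and 0.66 on the log2 scale. The developmental transcription factor gene SOX4 stood at 341, 340 and 336 CPM in siER_E2, under the 388 CPM of siNT_E2, and at 173, 170 and 169 CPM in siFOXA1_E2 (log2 -0.99). PDCD4, an inhibitor of translation, moved the other way (87.2, 90.1 and 83.3 against 142, 140 and 146 CPM, log2 0.72), as did the Krüppel-like factor gene KLF6 (0.52) and the laminin gene LAMB2 (0.47).

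The 24 protein-coding genes at the ends of the ranking were then read in all groups. A gene entered if it was called, had at least 10 CPM on average in either group and no overlap, which held for 6584 genes (37.1%). Of the 12 highest, siFOXA1_E2 had the highest mean of all 5 MM134 groups in 11, the exception being PGLYRP2, and siNT_E2 lay between both knockdowns in 6. Of the 12 lowest, siFOXA1_E2 had the lowest mean of the 5 groups in all 12. In 11 of these siNT_E2 lay between both knockdowns, the exception being MS4A7. For MS4A7 and OLFML2B the siER_E2 level was not called different from siNT_E2 (adjusted p = 0.9 and 0.53). Choice by the size of siFOXA1_E2 minus siER_E2 favours siFOXA1_E2 as the extreme group, so these counts are a description only.

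PTGES (chromosome 9, 129738331 to 129753047), the terminal synthase of prostaglandin E2, led the higher genes. It had 0.328, 0.794 and 0.419 CPM in siER_E2 and 11.6, 11.5 and 11.6 CPM in siFOXA1_E2 (22.8-fold, log2 4.51 ± 0.23, adjusted p = 1.7e-13). The siNT_E2 level was 8.87 CPM, from which siFOXA1_E2 was not called different (log2 0.38, adjusted p = 0.056), while siNT stood at 0.291 CPM. HPCAL4, a neuronal calcium sensor, followed with 1.44, 0.983 and 0.903 CPM against 22, 21.5 and 20.1 CPM (log2 4.25, adjusted p = 2e-15). Unlike PTGES it was low in every other group, with 0.733 CPM in siNT_E2. LY6G6C, a small surface protein of the Ly6 family, had the same pattern, with 2.75, 2.00 and 2.19 CPM against 28.5, 28.1 and 28.4 CPM and 1.45 CPM in siNT_E2 (log2 3.61). KIFC3, a motor protein that moves to microtubule minus ends, had 1.21, 0.946 and 0.516 CPM against 9.89, 10.1 and 10.6 CPM (log2 3.51).

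ANXA1, a calcium-dependent membrane-binding protein linked to inflammation control, read 5.86, 5.45 and 5.48 CPM in siER_E2 and 44.4, 49.3 and 47.6 CPM in siFOXA1_E2, where siNT_E2 stood at 3.69 CPM (8.41-fold, log2 3.07). With the MDC1 siRNA (siMDC1_E2) ANXA1 stood at 18.9 ± 0.68 CPM, also above siNT_E2. ASS1, which makes argininosuccinate on the way to arginine, rose from 4.72, 5.26 and 5.48 to 38.7, 42 and 39.1 CPM (log2 2.95), again above a siNT_E2 level of 3.36 CPM. DHRS2, a mitochondrial reductase, rose by 3.00, the inhibin subunit gene INHA by 2.89 and the endocytic adaptor gene DAB2 by 2.76. DAB2 stood at 12.2, 12.1 and 11.6 CPM against 80.4, 79.1 and 83 CPM, and the siNT_E2 mean of 24.1 CPM lay between. None of these genes had overlapping groups, as the rule for entry required.

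A trio of the 12 highest genes were neighbours on chromosome 19, within 162 kb (15468645 to 15630638), a grouping noticed after their values were seen. PGLYRP2 encodes an enzyme that cleaves bacterial peptidoglycan, and CYP4F22 and CYP4F8 encode cytochrome P450 enzymes of the family that hydroxylates fatty acids. PGLYRP2 had 8.58, 6.51 and 7.77 CPM in siER_E2 and 69.3, 68.7 and 72.1 CPM in siFOXA1_E2 (log2 3.19 ± 0.066), with 143 CPM in siNT_E2 and 2.68 CPM in siNT. CYP4F22 had 6.55, 5.56 and 5.74 CPM against 74.9, 75.8 and 77 CPM (log2 3.67), with 17.7 CPM in siNT_E2. CYP4F8 had 12.9, 12.3 and 13.3 CPM against 136, 132 and 138 CPM (log2 3.40), with 17.4 CPM in siNT_E2. So the FOXA1-knockdown level was under that of E2-treated control cells for PGLYRP2 and above it for both P450 genes. Within 200000 bases of the trio lay 11 other protein-coding genes of which 7 were tested, 4 higher (3 of them by 2-fold or more) and 2 lower. CYP4F3 (log2 2.11) and CYP4F12 (1.15) on one side and RASAL3 (1.01) on the other were higher too, and WIZ, the gene beyond RASAL3, was lower (-0.47). The P450 genes are close copies of each other, so reads may have been divided among them. Of the 24 genes, 9 overlap a gene on the opposite strand in the annotation, CYP4F22, LY6G6C, KIFC3 and INHA among the higher ones. The library kit keeps strand, but the strand setting of the counting was not given in the sources used here. On the same strand 7 of the 24 overlap another annotated gene, DAB2 and MS4A7 among them, and keeping strand does not separate such reads.

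**Figure D3:**
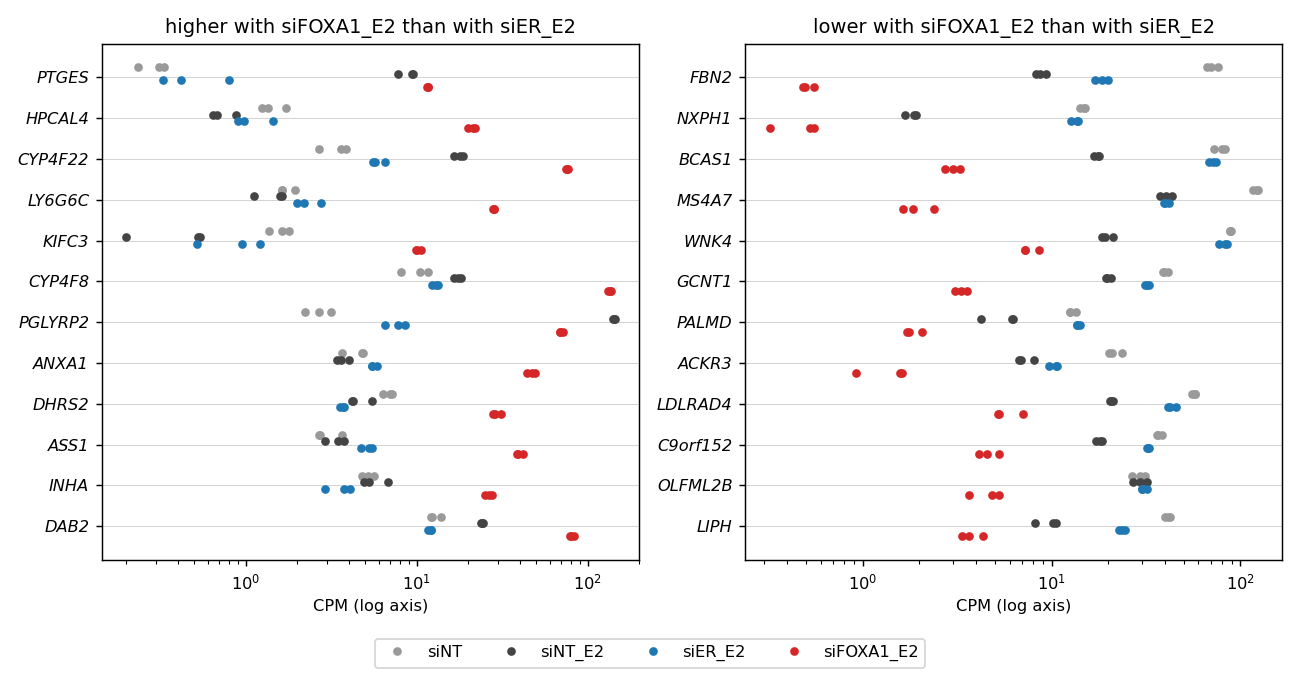
CPM (log axis) in each library of siNT, siNT_E2, siER_E2 and siFOXA1_E2 for the 12 highest (left) and 12 lowest (right) genes, 3 points per group. Red siFOXA1_E2 points lie to the right of blue siER_E2 points for every gene on the left and to the left for every gene on the right.

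All of the 12 lowest genes but OLFML2B (log2 0.02, adjusted p = 0.85) were called lower in siNT_E2 than in siNT. Of the 17744 genes tested, 4823 were. The 12 were chosen for high levels in siER_E2 relative to siFOXA1_E2, so this is a description only. FBN2 (chromosome 5, 128257909 to 128659185), a component of elastic microfibrils, stood at 70.9 CPM in siNT and 8.74 CPM in siNT_E2. It had 19.8, 18.4 and 17 CPM in siER_E2 but 0.483, 0.496 and 0.555 CPM in siFOXA1_E2 (35.7-fold lower, log2 -5.16 ± 0.12, adjusted p = 4.5e-19). NXPH1, a ligand of neurexins, read 13.7, 12.7 and 13.8 CPM against 0.322, 0.529 and 0.555 CPM (log2 -4.83), and siNT and siNT_E2 stood at 14.8 and 1.82 CPM. BCAS1 (chromosome 20, 53936777 to 54070594), named for its amplification in breast cancer, read 74.3, 68 and 71.7 CPM against 3.29, 3.01 and 2.74 CPM (23.7-fold lower, log2 -4.57). The receptor-knockdown level of BCAS1 was near that of siNT (78.5 CPM), and the FOXA1-knockdown level was under the 17.4 CPM of siNT_E2. WNK4, a kinase that regulates salt transporters, showed the same order, with 82.6, 76.6 and 85.1 CPM in siER_E2, 7.21, 7.24 and 8.60 CPM in siFOXA1_E2, 88.6 CPM in siNT and 19.6 CPM in siNT_E2 (log2 -3.40).

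MS4A7, a membrane-spanning protein otherwise known from macrophages, had 39.2, 42.1 and 39.7 CPM with the receptor siRNA, against 40.5 CPM in siNT_E2 (log2 -0.01, adjusted p = 0.9). With the FOXA1 siRNA it had 1.64, 2.38 and 1.85 CPM (20.6-fold lower, log2 -4.37, adjusted p = 2.9e-20). OLFML2B, an olfactomedin-like secreted protein, stood at 32.2, 30.1 and 30.1 CPM in siER_E2, against 29.4 CPM in siNT_E2, and at 5.28, 4.86 and 3.64 CPM in siFOXA1_E2 (log2 -2.75). GCNT1, which branches mucin-type sugars, read 32.9, 32.1 and 31.4 CPM against 3.32, 3.07 and 3.58 CPM (log2 -3.27). PALMD and ACKR3, a scavenger of the chemokine CXCL12, were each lower by 2.90, C9orf152 by 2.81 and the phospholipase gene LIPH by 2.64. LDLRAD4, an inhibitor of TGF-beta signalling, read 42.6, 45.7 and 41.6 CPM against 7.09, 5.22 and 5.30 CPM (log2 -2.88, adjusted p = 2.8e-18). No library of one group reached the range of the other in any of the 12, as the rule for entry required.

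Because a forkhead protein was the target of the siRNA, lower genes that hold the forkhead core TGTTTAC were looked at. Promoter windows are shown for 3 of them, LDLRAD4 and DEPP1 from above and FOXP1, a forkhead factor described below. Each is the 250 bases before the gene's start in RefSeq (GRCh38.p14), 5′ to 3′ on the gene's strand, with the core or its reverse complement GTAAACA in capitals. The windows are chr18:13338353-13338602 on the plus strand for LDLRAD4, chr10:44978810-44979059 on the minus strand for DEPP1 and chr3:71245078-71245327 on the minus strand for FOXP1. For LDLRAD4 and FOXP1 the RefSeq start lies inside the annotated gene, so these windows precede an internal start and not the outermost one.
LDLRAD4: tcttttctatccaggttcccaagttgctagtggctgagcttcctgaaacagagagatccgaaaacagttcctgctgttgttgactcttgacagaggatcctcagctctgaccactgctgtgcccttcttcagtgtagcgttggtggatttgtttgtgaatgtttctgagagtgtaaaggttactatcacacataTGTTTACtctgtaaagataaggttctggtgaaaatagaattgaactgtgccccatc
DEPP1: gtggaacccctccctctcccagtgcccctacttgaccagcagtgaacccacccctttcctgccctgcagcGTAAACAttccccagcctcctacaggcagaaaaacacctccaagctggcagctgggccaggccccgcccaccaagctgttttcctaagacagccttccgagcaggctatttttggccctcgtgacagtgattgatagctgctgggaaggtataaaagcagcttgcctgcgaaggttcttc
FOXP1: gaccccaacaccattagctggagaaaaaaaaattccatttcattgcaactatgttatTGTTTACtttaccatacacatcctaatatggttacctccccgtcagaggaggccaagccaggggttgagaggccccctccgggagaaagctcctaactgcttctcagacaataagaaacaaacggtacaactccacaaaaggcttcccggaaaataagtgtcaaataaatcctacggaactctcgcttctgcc
The core begins 56, 180 and 193 bases before the start in these windows. Searched on both strands, it was present in 332 of 11037 tested genes with a promoter entry (3.01%), in 14 of 459 genes higher by 2-fold or more (3.05%) and in 22 of 420 genes lower by 2-fold or more (5.24%). The full palindromic estrogen response element was present in 3 of the 11037 windows (0.0272%), in 1 of the higher (0.218%) and 0 of the lower genes. These windows cover promoters only, a match is not a binding site, and no test of the shares was made.

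Luminal transcription factors were divided, with 11 higher, 13 lower and 4 not called of 28 tested (median log2 -0.03). SPDEF (chromosome 6, 34537802 to 34556333), an ETS factor of secretory epithelium, stood at 280, 279 and 283 CPM in siER_E2 and at 90.5, 88.1 and 93.3 CPM in siFOXA1_E2. Its siNT_E2 level of 179 CPM lay between the knockdowns (3.09-fold lower in siFOXA1_E2, log2 -1.63 ± 0.031, adjusted p = 1.5e-20). CREB3L4, a membrane-bound factor of the secretory pathway, read 86.4, 89.4 and 86.4 CPM against 38, 37.5 and 37.4 CPM (log2 -1.22). XBP1, the factor that expands the endoplasmic reticulum, read 725, 731 and 751 CPM against 462, 479 and 489 CPM (log2 -0.63), both under the 1460 CPM of siNT_E2. GATA3, the master regulator of luminal identity, did not pass the test, at 1340, 1250 and 1330 CPM against 1340, 1350 and 1310 CPM (log2 0.03, adjusted p = 0.51). TFAP2B, an AP-2 factor of lobular cells, did not pass it either (188, 185 and 190 against 194, 201 and 187 CPM, log2 0.05, adjusted p = 0.35). GRHL3, a grainyhead factor of barrier epithelia, was higher by the most in this list, with 7.37, 7.72 and 8.03 CPM against 33.8, 35.4 and 33.7 CPM (4.45-fold, log2 2.15). The related GRHL1 rose by 0.64 and the AP-2 gene TFAP2A by 0.47 on the log2 scale.

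Among secreted and apical luminal proteins, 12 of 23 tested members were higher and 7 lower (median 0.15). AGR2, a protein disulfide isomerase of mucus-producing cells, stood at 40.2, 45.7 and 41.7 CPM in siER_E2, against 40.2 CPM in siNT_E2, and at 28.9, 23.7 and 25.9 CPM in siFOXA1_E2 (log2 -0.70, adjusted p = 2e-08). BPIFB1, a secreted defence protein of airway and mucosal surfaces, read 34.1, 31.1 and 34.1 CPM against 10.8, 11 and 10.3 CPM (log2 -1.63). TFF1 and TFF3 above also belong to this list. Among its higher members were KRT7, a keratin of simple glandular epithelium (441, 431 and 444 against 684, 691 and 710 CPM, log2 0.66), and DHRS2 described above (3.00).

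Other forkhead factors were lower in 9 of 21 tested cases and higher in 5 (median -0.32). Without the libraries with the higher pseudogene share, 8 were lower and 5 higher (median -0.14). The share called was 66.7%, against 51.3% of all genes. FOXP1 stood at 49.2, 46.7 and 46.4 CPM in siER_E2 and at 17.4, 18.1 and 18.1 CPM in siFOXA1_E2 (log2 -1.41, adjusted p = 1.7e-15), around the 25.1 CPM of siNT_E2. FOXP4 read 315, 305 and 328 CPM against 162, 156 and 158 CPM (log2 -0.99). FOXO4, a factor restrained by growth factor signalling, read 44.6, 43.8 and 43.5 CPM against 21, 18.5 and 19.2 CPM (log2 -1.16). These groups did not overlap. FOXO6, FOXK1 and FOXJ2 were higher by 0.53, 0.40 and 0.39.

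Of 35 nuclear hormone receptors tested besides ESR1, 10 were higher and 15 lower (median -0.21, from -0.31 to -0.06 over the alternatives). The vitamin D receptor gene VDR had 31.9, 31.7 and 33.9 CPM in siER_E2 and 96.1, 95.1 and 97.3 CPM in siFOXA1_E2, on either side of the 55.6 CPM of siNT_E2 (2.96-fold, log2 1.56 ± 0.037, adjusted p = 5e-19). PPARD, a fatty acid sensor, read 304, 290 and 297 CPM against 161, 156 and 155 CPM (log2 -0.91), and the clock receptor gene NR1D2 was higher by 0.42. Receptor cofactors showed 11 higher, 7 lower and 10 not called of 28 (median 0.01), a share of 64.3% called against 51.3% of all genes. PPARGC1A, a coactivator of mitochondrial biogenesis, had 7.14, 6.01 and 6.64 CPM against 0.580, 0.529 and 0.462 CPM (12.5-fold lower, log2 -3.65 ± 0.22, adjusted p = 4.9e-12). Its levels in siNT and siNT_E2 were 6.76 and 1.24 CPM, so the receptor knockdown stood at the vehicle level and the FOXA1 knockdown under the E2 level. The steroid receptor coactivator gene NCOA3 was lower by 0.51 and the corepressor gene TLE3 by 0.43.

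The abundant keratins of simple epithelium stood higher after FOXA1 knockdown. Of 15 keratins tested (27 in the list), 10 were higher, 1 lower and 4 not called (median 0.71). KRT13, KRT14, KRT16 and KRT32 are among the 10 and stood at 0.0126 to 0.0702 CPM in siER_E2, so they passed the filter on low counts through siFOXA1_E2, and the count is a description only. KRT8 and KRT18 encode the partner filament proteins of simple epithelium and lie side by side on chromosome 12 (52897187 to 52949954 and 52948871 to 52952901, so their annotated spans overlap, on opposite strands). KRT8 read 1930, 1840 and 1840 CPM in siER_E2 and 7010, 7360 and 7420 CPM in siFOXA1_E2 (3.88-fold, log2 1.96 ± 0.029, adjusted p = 3e-22). KRT18 read 804, 768 and 816 CPM against 2900, 3010 and 3020 CPM (3.74-fold, log2 1.90). KRT8 and KRT18 stood at 1820 and 780 CPM in siNT, and with the FOXA1 siRNA both exceeded their siNT_E2 levels of 4430 and 1250 CPM. KRT80 rose from 59.8, 56.1 and 58.6 to 164, 170 and 173 CPM (log2 1.53), and KRT10, a keratin of differentiated skin, was the only keratin called lower (log2 -0.24). KRT8 and KRT18 are also epithelial markers and enter the marker sums given above.

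Of 51 basal and squamous genes, 22 passed the filter on low counts, and several of these passed through the siFOXA1_E2 group alone, so their count (16 higher, 1 lower, and 16 and 2 without the libraries with the higher pseudogene share) is a description only. LAMB3 (chromosome 1, 209614870 to 209652466), a laminin chain that anchors epithelium to its basement membrane, was well measured in both groups. It stood at 27.3, 24.9 and 25.6 CPM in siER_E2 and at 162, 159 and 163 CPM in siFOXA1_E2, with 21.5 CPM in siNT_E2 (6.22-fold, log2 2.64 ± 0.040, adjusted p = 4.8e-22). SFN, the stratifin of keratinocytes, read 101, 102 and 104 CPM against 231, 240 and 245 CPM (log2 1.22). TP63, the master regulator of basal cells, stayed near the limit of detection at 1.21, 0.794 and 1.35 CPM against 1.90, 2.05 and 2.44 CPM (log2 0.92 ± 0.23, adjusted p = 0.0018). S100A8, a calcium-binding protein of stressed skin, had 0 counts in the siER_E2 libraries and 264 in siFOXA1_E2, which is at least 82.6-fold higher against a floor of 3 counts over the group. That floor covers counting error only.

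Of 30 genes for catenins, cadherins, desmosomes and tight junctions, 18 were higher and 6 lower (median 0.28). PKP3, a plaque protein of desmosomes, read 145, 145 and 146 CPM against 284, 278 and 289 CPM (log2 0.96, adjusted p = 2.2e-17), and MARVELD2, a protein of tricellular junctions, 42.9, 44.6 and 46.4 CPM against 92.1, 93.2 and 92.2 CPM (log2 1.05). CTNND2 and the junctional adhesion gene F11R were lower by 1.05 and 0.36. CDH2, the N-cadherin of mesenchymal and neural cells, fell most in this list, from 58.5, 57.5 and 59.5 to 12.1, 14.3 and 12.2 CPM (log2 -2.19 ± 0.054, adjusted p = 1e-18), where siNT_E2 stood at 28.4 CPM. The mesenchymal list was divided, 8 higher and 7 lower of 22 tested (median 0.00). FN1, the matrix protein fibronectin, read 182, 169 and 170 CPM against 64.2, 57 and 62.1 CPM (log2 -1.51), and the growth factor gene TGFB3 156, 151 and 160 CPM against 56.6, 53.8 and 53.8 CPM (log2 -1.51). Their order against the control differed, since the siNT_E2 level of FN1 (235 CPM) was above both knockdowns and that of TGFB3 (63.9 CPM) was between them. Integrins, laminins and collagens had 18 higher and 12 lower of 35 (median 0.16). ITGA3, the laminin-binding integrin chain, rose from 151, 140 and 145 to 272, 259 and 268 CPM (log2 0.87), and the collagen genes COL4A5 and COL9A2 were lower by 0.80 and 1.28.

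Growth factor pathways changed member by member. Among 12 genes of the EGFR family, its ligands and regulators, 5 were higher and 5 lower (median -0.12, from -0.19 to -0.01 over the alternatives). The receptor gene ERBB3 (chromosome 12, 56076799 to 56103505), whose product signals with ERBB2 on binding neuregulins, stood at 585, 569 and 577 CPM in siER_E2 and at 209, 207 and 216 CPM in siFOXA1_E2. It was 2.74-fold lower (log2 -1.45 ± 0.031, adjusted p = 7.4e-20), with the siER_E2 level near siNT (564 CPM) and the siFOXA1_E2 level under siNT_E2 (266 CPM). Of the inhibitors of these receptors, ERRFI1 rose from 77.3, 79 and 75.4 to 170, 167 and 169 CPM (log2 1.13) and LRIG1 fell from 17, 15.3 and 17.4 to 6.70, 6.21 and 6.23 CPM (log2 -1.38). In the insulin-like growth factor axis, 5 of 16 were higher and 7 lower (median 0.01). IGFBP3, a binding protein that limits ligand access, read 32.5, 31 and 32.9 CPM against 7.38, 7.11 and 8.17 CPM (log2 -2.09), while the adaptor gene IRS1 read 91, 88.7 and 91 CPM against 163, 161 and 160 CPM (log2 0.84) and the insulin receptor gene INSR was higher by 0.33.

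WNT pathway genes had 9 higher and 4 lower of 20 tested (40 in the list, median 0.31). The share called was 65%, against 51.3% of all genes. The ligand gene WNT4, which E2 induced in control cells (7.64 to 28.5 CPM), read 8.42, 7.87 and 9.41 CPM against 18.2, 19.1 and 21 CPM (log2 1.18, adjusted p = 5.1e-10), and WNT7B 114, 113 and 121 CPM against 192, 189 and 187 CPM (log2 0.71). TCF7, a nuclear effector, rose from 2.39, 3.14 and 3.29 to 9.76, 11.1 and 10.5 CPM (log2 1.83), whereas AXIN2, a feedback inhibitor, fell from 8.42, 9.46 and 8.32 to 4.38, 4.03 and 4.10 CPM (log2 -1.06). Immediate-early factors were divided, 12 higher and 9 lower of 26 (median 0.09). IER2 and JUNB, which respond within minutes to growth stimuli, were higher by 1.36 and 0.91, and JUN and the phosphatase genes DUSP6 and DUSP4 were lower by 0.52, 0.54 and 0.35.

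Genes of protein folding stood higher after FOXA1 knockdown almost throughout. Of 24 heat shock proteins and chaperones, 23 were higher and 1 lower (median 0.42), and without the libraries with the higher pseudogene share 23 were higher and 0 lower. The lower member was FKBP5, a cochaperone of steroid receptors (log2 -0.22, adjusted p = 0.0068), whose call was lost without siFOXA1_E2 replicate 1 (-0.16, adjusted p = 0.064). HSP90AA1, the inducible HSP90, read 2770, 2800 and 2630 CPM in siER_E2 and 4860, 5000 and 4970 CPM in siFOXA1_E2 (1.81-fold, log2 0.85 ± 0.028, adjusted p = 9.7e-17), and siNT_E2 stood at 3600 CPM. HSPB1 read 1020, 1000 and 1050 CPM against 1660, 1740 and 1760 CPM (log2 0.75), and siFOXA1_E2 was not called different from the 1680 CPM of siNT_E2 (log2 0.03, adjusted p = 0.38). The list's medians against the shared siNT_E2 libraries were -0.55 for siER_E2 and -0.14 for siFOXA1_E2.

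The unfolded protein response list had 18 higher and 5 lower of 24 (median 0.43). CALR, a chaperone of the endoplasmic reticulum, read 680, 637 and 700 CPM against 1130, 1170 and 1180 CPM (log2 0.78, adjusted p = 1.3e-14), and PDIA6, which forms disulfide bonds, 212, 210 and 213 CPM against 337, 341 and 346 CPM (log2 0.69). CALR stood at 1150 CPM in siNT_E2, with a log2 difference of 0.01 to siFOXA1_E2 (adjusted p = 0.87). Going the other way were XBP1, the translocon-associated gene SSR1 (133, 135 and 129 against 80.7, 80.4 and 79.9 CPM, log2 -0.72) and SEL1L of the degradation machinery (176, 175 and 159 against 97.3, 89.6 and 97.5 CPM, log2 -0.84). The ATF4 and amino acid list had 12 higher and 3 lower of 24 (median 0.19). SLC7A5, a chain of the leucine transporter, stood at 22.1, 20.8 and 23.8 CPM in siER_E2, at 85.2, 87.6 and 92.6 CPM in siFOXA1_E2 and at 217 CPM in siNT_E2 (3.97-fold, log2 1.99 ± 0.058, adjusted p = 1.5e-17). The cystine transporter gene SLC7A11 was lower by 0.88 and the lipoprotein receptor gene VLDLR by 1.92.

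Ribosome biogenesis genes were higher in 29 of 35 cases and lower in 1 (median 0.34; 28 and 1 without the libraries with the higher pseudogene share). BOP1, a factor of large ribosomal subunit assembly, read 74.5, 70.4 and 70.9 CPM against 129, 131 and 129 CPM (log2 0.85, adjusted p = 6.8e-15), NOP58 65.8, 65.5 and 64.1 CPM against 98.1, 102 and 97.7 CPM (log2 0.61) and NOLC1 166, 156 and 157 CPM against 228, 237 and 232 CPM (log2 0.54). All 3 rose with E2 in control cells, to 152, 83.7 and 299 CPM. RRP12 was the lower member (60.7, 57.8 and 60 against 41.5, 39.3 and 43.9 CPM, log2 -0.52). The list's medians against siNT_E2 were -0.56 in siER_E2 and -0.34 in siFOXA1_E2.

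Most cholesterol genes were higher as well. Cholesterol synthesis had 18 higher and 1 lower of 24 (median 0.29), and HMGCS1, the synthase at the entry of the pathway, had the smallest p, at 88, 91.1 and 85.1 CPM against 174, 177 and 172 CPM (log2 0.99, adjusted p = 3.1e-16). SREBF2, the factor that drives the pathway, read 217, 217 and 219 CPM against 342, 339 and 337 CPM (log2 0.64). SQLE, the squalene epoxidase, was the lower member (201, 191 and 191 against 165, 168 and 172 CPM, log2 -0.21). Fatty acid and sterol handling had 15 higher and 7 lower of 26 (median 0.31). SCD, the desaturase that makes oleate, rose from 489, 479 and 488 to 1170, 1190 and 1230 CPM (2.46-fold, log2 1.30, adjusted p = 4.5e-19), above the 577 CPM of siNT_E2. CPT1A, which admits fatty acids to mitochondria for oxidation, fell from 518, 503 and 514 to 301, 305 and 306 CPM (log2 -0.75), below the 465 CPM of siNT_E2. The cholesterol exporter gene ABCA1, lowered by E2 in control cells from 9.02 to 0.892 CPM, stood at 11.8, 10.6 and 9.45 CPM in siER_E2 and at 4.06, 3.54 and 3.64 CPM in siFOXA1_E2 (log2 -1.50). ELOVL5, another elongase, was lower by 0.46, opposite to ELOVL2.

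Of 29 hypoxia and glycolysis genes, 17 were higher and 7 lower (median 0.34). SLC2A1, the glucose carrier GLUT1, read 289, 255 and 273 CPM in siER_E2 and 749, 707 and 755 CPM in siFOXA1_E2 (2.70-fold, log2 1.43 ± 0.059, adjusted p = 5e-15), between the siNT and siNT_E2 levels of 264 and 1060 CPM. ENO1, the enolase, read 490, 480 and 491 CPM against 1070, 1050 and 1070 CPM (log2 1.13), above siNT_E2 (802 CPM), and the collagen hydroxylase gene P4HA2 rose by 1.01. EGLN3, the oxygen-sensing hydroxylase, fell from 36.7, 36.3 and 36.6 to 19.3, 16.3 and 17.4 CPM (log2 -1.05), and the histone demethylase gene KDM3A and the hexokinase gene HK2 were lower by 0.39 and 0.28. Of 13 mitochondrially encoded transcripts, 8 were higher and 1 lower (median 0.14), with MT-CYB as the most changed by p (3580, 3020 and 3170 against 4310, 4100 and 4060 CPM, log2 0.35, adjusted p = 5.2e-06).

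**Figure D4:**
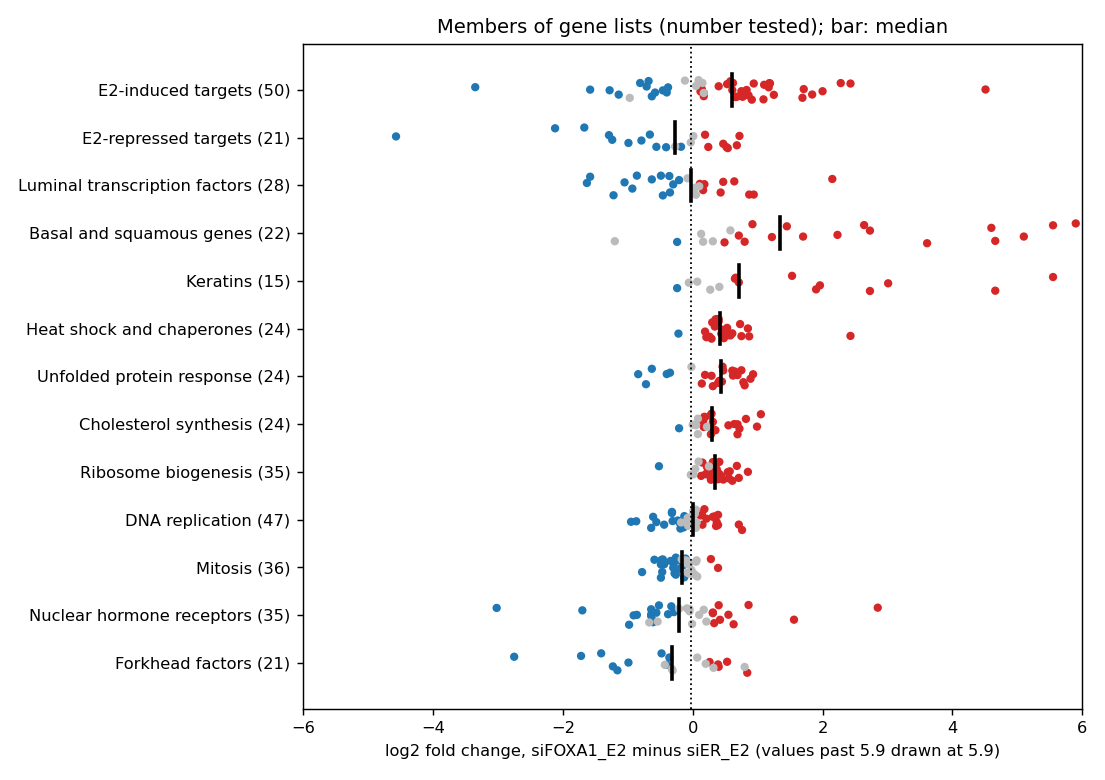
Log2 fold change (siFOXA1_E2 minus siER_E2) of the tested members of 13 gene lists, with red points called higher, blue called lower, gray not called, and a black bar at the list's median; the dotted line marks the median of all genes and values past 5.9 are drawn at 5.9. Most heat shock, ribosome biogenesis and cholesterol genes lie to the right of the dotted line, and most Mitosis genes to its left.

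No called member of the mitosis, DNA replication and DNA damage lists reached 2-fold. Of 36 Mitosis genes, 2 were higher, 21 lower and 13 not called (median -0.16), a share of 63.9% called against 51.3% of all genes. FOXM1, the forkhead factor that drives mitotic genes, read 240, 235 and 234 CPM against 171, 168 and 171 CPM (log2 -0.48, adjusted p = 4.1e-12), and the spindle checkpoint kinase gene BUB1 124, 123 and 115 CPM against 78.7, 82.1 and 79.3 CPM (log2 -0.59). BIRC5, the apoptosis inhibitor survivin, and MKI67, the proliferation marker Ki-67, went the other way, by 0.39 and 0.28. MKI67 stood at 654, 583 and 603 CPM in siER_E2 and at 742, 742 and 748 CPM in siFOXA1_E2, with 1020 CPM in siNT_E2. DNA replication genes balanced, 15 higher and 16 lower of 47 (median 0.00), a share of 66% called against 51.3% of all genes. Within the MCM helicase, MCM6 fell from 201, 192 and 198 to 101, 98.9 and 105 CPM (log2 -0.95, adjusted p = 5.3e-16) and MCM4 rose from 177, 177 and 173 to 303, 293 and 297 CPM (log2 0.76, adjusted p = 7.2e-15). The flap endonuclease gene FEN1 and the licensing factor gene CDC6 were higher by 0.71 and 0.39. DNA damage response genes had 6 higher, 11 lower and 17 not called of 34 (median -0.05), a share of 50% called against 51.3% of all genes, with the checkpoint kinase gene CHEK1 lowest (36.2, 34.5 and 33.7 against 18.3, 20.4 and 21.6 CPM, log2 -0.79) and TP53BP1, a partner of MDC1 at breaks, lower by 0.48.

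Targets of p53 were divided, 9 higher and 10 lower of 27 (median -0.01; 8 and 6 without the libraries with the higher pseudogene share), with ZMAT3 higher by 1.17 and XPC, a nucleotide excision repair protein, by 0.46. The BCL2 family had 7 higher and 4 lower of 18 (median 0.11), a share of 61.1% called against 51.3% of all genes. Besides BIK and BMF, the neuronal death gene HRK was lower (1.61, 1.63 and 1.45 against 0.451, 0.364 and 0.339 CPM, log2 -2.01), and the survival gene MCL1 was higher (179, 194 and 182 against 253, 262 and 261 CPM, log2 0.49).

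Interferon-stimulated genes had 13 higher, 10 lower and 17 not called of 40 (median -0.03), a share of 57.5% called against 51.3% of all genes. B2M, the light chain of class I antigen-presenting molecules, read 186, 200 and 186 CPM in siER_E2, against 193 CPM in siNT_E2, and 287, 304 and 315 CPM in siFOXA1_E2 (log2 0.66, adjusted p = 6.3e-13). DTX3L and PARP9, partner proteins encoded next to each other, were lower by 0.63 and 0.65, and STAT2 by 0.29. Of 13 tested inflammatory genes 4 were higher and 2 lower (median 0.17), a share of 46.2% called against 51.3% of all genes, and the sign of that median changed under some alternatives. Neuronal genes had 6 higher and 12 lower of 26 (median -0.14, from -0.16 to -0.01 over the alternatives), with the microtubule gene MAP2 (35.8, 36.4 and 36.2 against 80.6, 80.6 and 77.5 CPM, log2 1.14) and HPCAL4 going against NXPH1. Potassium channels had 12 higher and 6 lower of 26 (median 0.15). KCNMA1, the large-conductance calcium-activated channel, fell from 89.3, 81.6 and 87.1 to 18, 19 and 19.4 CPM (4.58-fold, log2 -2.19, adjusted p = 1.3e-19), whereas KCNN4, the intermediate-conductance calcium-activated channel, rose from 4.75, 4.58 and 4.55 to 21.3, 21.6 and 20.9 CPM (4.59-fold, log2 2.20). KCNH1, which E2 raised in control cells from 1.67 to 17.4 CPM, stood at 3.51, 2.95 and 3.45 CPM in siER_E2 and at 12.3, 14.1 and 12.8 CPM in siFOXA1_E2 (log2 1.98).

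Whether MM134 differed from the other lines in this comparison was tested as a difference of log2 fold changes in a fit of all 45 libraries, whose scaling shifts the CPM of MM134 slightly. Of 21447 genes, 7219 (33.7%) differed between MM134 and MM330 and 5105 (23.8%) between MM134 and HCC1428. Differences of 2-fold or more were called higher in 712 (3.32%) and lower in 1129 genes (5.26%) against MM330, and in 602 (2.81%) and 486 (2.27%) against HCC1428. The higher pseudogene share was not balanced in the other lines. It was found in siER_E2 replicate 3 of MM330 (0.346%) and siER_E2 replicates 2 and 3 of HCC1428 (0.38% and 0.371%), but in no siFOXA1_E2 library of either line. This fit had no term for that share, so its part in these differences is not separated. The 24 genes were chosen for their size in MM134, so their differences from the other lines contain the value they were chosen by and are a description. Genes with means under 1 CPM in both compared groups of another line (HPCAL4, OLFML2B and NXPH1 in both, FBN2 in MM330, CYP4F8 and MS4A7 in HCC1428) were not compared with it.

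FOXA1 was lower in every line, with log2 values of -2.26 in MM134, -2.05 in MM330 and -2.27 in HCC1428, and its difference between MM134 and MM330 was small (-0.22 ± 0.067, adjusted p = 0.0099). That call was lost without MM330 siFOXA1_E2 replicate 1 (-0.14, adjusted p = 0.078). ESR1 was 0.85 higher with siFOXA1_E2 than with siER_E2 in MM134 (60.2 ± 3.7 against 108 ± 3.2 CPM), 3.23 higher in MM330 (22.2 ± 3.8 against 208 ± 5.2 CPM) and 0.85 higher in HCC1428 (217 ± 7.4 against 392 ± 1.7 CPM). The difference from MM330 was -2.38 ± 0.082 (adjusted p = 1.3e-24), and that from HCC1428 was 0.00 ± 0.077 (adjusted p = 1). GREB1 was higher with FOXA1 knockdown in all 3 lines, by 0.96, 2.43 and 2.78, least in MM134 (differences -1.47 and -1.82, adjusted p = 3.3e-18 and 9.2e-21). In MM330 and HCC1428 it reached or passed the siNT_E2 level, at 1720 ± 210 against 1600 ± 55 and 2310 ± 59 against 1430 ± 39 CPM, while in MM134 it stayed at 114 ± 5.1 against 529 ± 1.8 CPM. TFF1 was lower in MM134 (-0.69) and HCC1428 (-0.31) but higher in MM330 (1.66), a difference of -2.35 ± 0.19 from MM330 (adjusted p = 3.8e-13). MYC was higher in all 3 lines, by 1.70 in MM134, 5.74 in MM330, where siER_E2 had 0.307 ± 0.20 CPM, and 0.72 in HCC1428.

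Among the extreme genes, BCAS1 was lower in every line, by 4.55 in MM134, 2.82 in MM330 and 3.09 in HCC1428, and CYP4F22 was higher in every line (3.69, 4.14 and 3.61), with differences from MM134 that did not pass the test (-0.45 ± 0.45 and 0.07 ± 0.24, adjusted p = 0.5 and 0.92). The MM330 value of CYP4F22 rests on few counts, with 0.14 ± 0.11 CPM in siER_E2 and 2.45 ± 0.89 CPM in siFOXA1_E2. DAB2 was higher by 2.77 in MM134, 2.50 in MM330 and 2.45 in HCC1428. KIFC3 was higher in MM134 and MM330 (3.53 and 1.16) and lower in HCC1428 (-0.60), where it started from 128 ± 3.2 CPM (difference 4.14 ± 0.18, adjusted p = 1.3e-21). WNK4 was 3.39 lower in MM134 and 0.81 and 0.70 lower in MM330 and HCC1428.

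**Figure D5:**
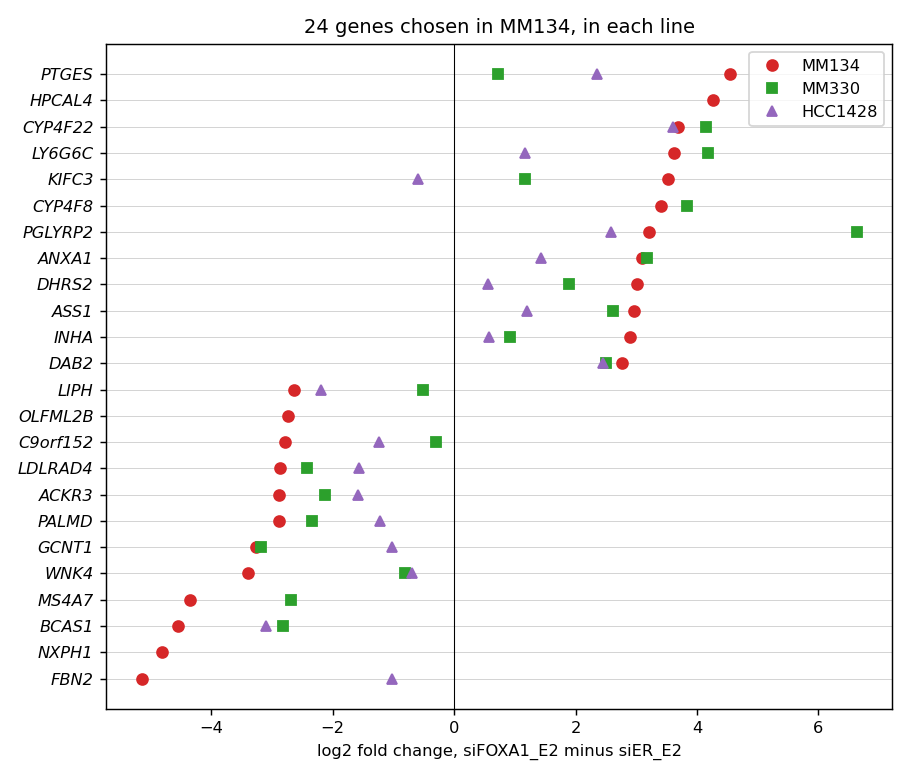
Log2 fold change (siFOXA1_E2 minus siER_E2) in MM134 (circles), MM330 (squares) and HCC1428 (triangles) for the 12 highest and 12 lowest genes of MM134, leaving out lines in which a gene's mean was under 1 CPM in both groups. BCAS1 is below 0 in all 3 lines and CYP4F22 above 0 in all 3, whereas KIFC3 lies on both sides.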

How the data were processed

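RNA of the 6 compared libraries, and of the other 39 of the study, was sequenced from a stranded mRNA kit, per the labels. The deposited table holds raw counts per gene symbol, made by the authors from reads aligned with STAR 2.6.0a, per the submitters' processing notes; counting tool, strand setting and annotation: not given in the sources used here. Of 57353 symbols, 27 had turned into dates (0.19% of counts); they stayed in the totals and the tests and are not named. Coordinates are from GENCODE 29 (GRCh38), matched by symbol.

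Counts were scaled by the trimmed mean of M values, filtered with filterByExpr by group, and tested with edgeR 4.0.16 (R 4.3.3; quasi-likelihood test, 15 MM134 libraries, 1 term per group, Benjamini-Hochberg adjustment over 17744 genes, call at adjusted p below 0.05). Adjusted p-values within MM134 are from this test. Differences between lines were interaction contrasts in a fit of 45 libraries by the same method, adjusted over 21447 genes. Adjusted p-values given with a library left out or without the filter are from edgeR refits. The test was checked on simulated counts. Alternatives were another scaling (RLE), no filter, DESeq2 1.42.0, limma-voom (limma 3.58.1), a fit of the 6 compared libraries, a replicate block, a test against 1.5-fold (glmTreat), each library left out, both libraries with the higher pseudogene share left out, and, added after seeing the data, a term for that share.

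Genes named are both target genes and MDC1, of the called protein-coding genes the 12 with the highest and 12 with the lowest fold change (mean of 10 CPM or more in 1 of both groups, libraries not overlapping), up to 3 members per list by smallest p and up to 3 against the list's majority, and a panel of luminal and estrogen-responsive genes. S100A8, the chromosome 19 genes beside the trio and keratins named only by their low counts, were chosen after their values were seen. Members and the 37 lists were chosen with earlier results of these data known. Promoters and the motif search used RefSeq sequences.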

Additional observations from a re-analysis of the deposited data

Results flagged for a closer look

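The siFOXA1_E2 minus siER_E2 effect differed between MM134 and another line, by the interaction test, in these genes; values are differences of log2 fold changes, MM134 minus the other line, and those of extreme genes contain the value the genes were chosen by. Against MM330, ESR1 differed by -2.38, FOXA1 by -0.22, GREB1 by -1.47, TFF1 by -2.35 and MYC by -4.04. MYC stood at 17.8 CPM in siER_E2 and 57.9 CPM in siFOXA1_E2 of MM134, and at 0.307 and 16 CPM in MM330. PTGES differed by 3.82 and KIFC3 by 2.37 in the same comparison, with PTGES at 0.47 and 10.7 CPM in MM134 and at 14 and 23 CPM in MM330. BCAS1 differed by -1.73, WNK4 by -2.58 and MS4A7 by -1.66 against MM330. Without MM330 siFOXA1_E2 replicate 1 the difference of MS4A7 was -0.32 (adjusted p = 0.65 by edgeR).

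Against HCC1428, GREB1 differed by -1.82 and MYC by 0.98. PTGES differed by 2.19, LY6G6C by 2.45 and KIFC3 by 4.14. BCAS1 differed by -1.46, WNK4 by -2.69 and FBN2 by -4.11. KIFC3 stood at 0.817 and 9.42 CPM in MM134 and at 128 and 84 CPM in HCC1428, the line in which its direction was opposite.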

How the results depend on the processing

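The count of genes for siFOXA1_E2 minus siER_E2 in MM134 (9100) lay between 8308 and 8913 with each library left out, and its count at 2-fold or more (1450) between 1395 and 1685, highest without siER_E2 replicate 3. Tested against a 1.5-fold change the count was 1708, which asks for a larger change by construction. The replicate block gave 9031 genes. The replicate numbers did not pair the samples (correlations of deviations from the group means -0.39, 0.24 and -0.38). Deviations of siER_E2 replicate 3 and siFOXA1_E2 replicate 1, the libraries with the higher pseudogene share, correlated at 0.58. Spread between 2 libraries of a group, relative to counting noise, was 8.37 to 9.08 for pairs with 1 of these libraries. For the other pairs it was 4.62 in siER_E2 and 2.01 in siFOXA1_E2. The cause was not tested. Of 186 named genes, 69 lost the call they had in the main fit when tested against 1.5-fold, and at most 3 lost it in any other alternative.

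Values near 0 changed sign. GATA3 (0.03) ranged from 0.00 to 0.05 with libraries left out. The inflammatory list median (0.17) ranged from -0.09 to 0.19 with libraries left out and was -0.10 in the fit of the 6 compared libraries. The difference between lines, MM134 minus HCC1428, of ESR1 (0.00) ranged from -0.04 to 0.04 with libraries left out and was 0.03 with the term for pseudogene share. That of FOXA1 (0.01) ranged from -0.03 to 0.05 and was -0.02 with RLE scaling and -0.02 without the filter. That of CYP4F22 (0.07) ranged from -0.17 to 0.23. Without the filter, the FOXA1 difference from MM330 was -0.17 (adjusted p = 0.12) and the TFF1 difference from HCC1428 passed the test (-0.41, adjusted p = 0.0017, against -0.38 and 0.17). The secreted list median (0.15) ranged from 0.07 to 0.28 and the keratin median (0.71) from 0.66 to 1.12 over all alternatives. The cause of these changes was not tested. For the difference between lines, MM134 minus MM330, 6709 to 7235 genes were called with libraries left out, and for the difference between lines, MM134 minus HCC1428, 4569 to 5123. Genes under 1 CPM rest on few counts.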
